A study of Mus musculus with 6 samples.

Results

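Zfp genes encode zinc finger proteins, most of which grip DNA through a row of C2H2 fingers, each a short loop held around a zinc ion. Many also carry a KRAB box, a domain that recruits the co-repressor TRIM28 and with it histone methylation, and this class silences retroelements and guards imprinted genes. Their promoters are often rich in CpG sites, and in germ cells and embryos the state of these promoters bears on which repressors are available.

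The Zfp promoters described here were taken from reduced representation bisulfite sequencing (RRBS) of GS cells, a culture of mouse spermatogonia in which the stem cells of spermatogenesis persist. RRBS reads CpG-rich fragments after bisulfite treatment, which leaves methylated cytosines as they are. The cells came from C57BL6/Tg14(act-EGFP-OsbY01) mice bred into a DBA/2 background (genotype label DBA/Tg14(act-EGFP-OsbY01)), in which an actin promoter drives EGFP, and both groups shared this transgene. They were grown on embryonic fibroblasts with GDNF and FGF2, were kept frozen for about 6 months either on the International Space Station (Space GS cells, 3 samples) or on Earth (Ground GS cells, 3 samples), and were sampled after thawing and passage.

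A Zfp promoter was every autosomal gene named Zfp followed by a number, with the CpG sites whose closest transcription start site (TSS) was that gene's, at a distance of 1000 bp or less, and with at least 10 reads in each of the 6 samples. The rule left out 1 gene by name. Of 362 autosomal Zfp genes in the table, 260 had such a site, which compares with 16245 genes in the whole table. Of the rest, 51 had sites within 1000 bp that lacked the reads, and 51 had no site there. The 260 promoters held 5368 CpG sites, from 1 to 122 per promoter with a median of 13.5, and 236 promoters had at least 3 sites. The DNA methylation level of a promoter is given in % of the reads summed over its sites, and the median promoter had 448 reads per sample. Reads summed over the sites of all members ranged from 177881 to 210750 per sample. Of 4818 neighbouring sites within 50 bp, 2956 (61.4%) had the same coverage in every sample, since 1 read covers several CpG sites and is counted at each.

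To show what an unmethylated Zfp promoter looks like, RefSeq promoter windows of GRCm38.p6, from 250 bases before to 50 after the annotated start, were matched by symbol. The symbol matched for 220 of the 260 promoters. The deposited coordinates are of mm39, so no position was carried over. Instead, the distances of the measured sites were slid along each window by up to 300 bases, and 82 promoters had exactly 1 placement in which all of at least 5 measured sites fell on CpG, 22 of them without any shift. These windows held 1045 measured CpG sites with a median level of 1.52%, and 0 were above 10%, with the highest at 7.23%. In the 4 windows printed here, lower case is sequence without data and capitals mark the measured CpG sites. *Zfp954* is shown because no read was methylated in it, *Zfp445* as a keeper of imprints, *Zfp426* as a promoter with one of the smallest p values between groups, and *Zfp335* because its methylated sites lay upstream of the window.

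Zfp954: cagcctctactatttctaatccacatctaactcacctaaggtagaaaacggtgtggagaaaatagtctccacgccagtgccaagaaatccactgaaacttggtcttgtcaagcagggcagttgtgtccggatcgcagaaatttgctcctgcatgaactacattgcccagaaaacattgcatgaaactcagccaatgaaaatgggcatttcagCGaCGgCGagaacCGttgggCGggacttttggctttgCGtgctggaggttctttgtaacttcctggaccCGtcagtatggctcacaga
Zfp445: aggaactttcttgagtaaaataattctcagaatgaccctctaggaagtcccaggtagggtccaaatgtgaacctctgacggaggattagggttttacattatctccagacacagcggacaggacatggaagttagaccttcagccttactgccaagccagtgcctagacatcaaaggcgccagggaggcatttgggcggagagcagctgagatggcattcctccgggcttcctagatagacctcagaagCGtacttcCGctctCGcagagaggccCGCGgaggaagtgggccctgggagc
Zfp426: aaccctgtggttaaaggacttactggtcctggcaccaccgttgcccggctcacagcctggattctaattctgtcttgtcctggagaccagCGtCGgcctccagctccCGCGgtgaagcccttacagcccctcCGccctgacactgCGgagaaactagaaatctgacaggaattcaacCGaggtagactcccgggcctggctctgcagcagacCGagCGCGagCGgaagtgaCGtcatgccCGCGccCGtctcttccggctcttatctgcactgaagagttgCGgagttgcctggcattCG
Zfp335: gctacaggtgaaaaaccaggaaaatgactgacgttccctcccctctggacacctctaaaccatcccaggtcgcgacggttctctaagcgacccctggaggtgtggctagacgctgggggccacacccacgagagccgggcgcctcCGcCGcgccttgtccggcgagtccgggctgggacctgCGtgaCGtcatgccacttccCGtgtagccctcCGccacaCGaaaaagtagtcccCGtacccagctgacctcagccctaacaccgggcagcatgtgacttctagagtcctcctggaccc

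In *Zfp954* (chromosome 7, 7 of 11 CpG sites of the window measured), 0 reads were methylated in any of the 6 samples. The deepest of these sites had 115 reads over all samples, which allows a level of up to 2.61% (3 counts, counting error only). In *Zfp445* (chromosome 9) the 5 measured sites of the window, from 1 bp before to 27 bp after the TSS, had mean levels of 0.417% to 1.28%. In *Zfp426* (chromosome 9) the 17 measured sites ranged from 0.641% to 3.30%. In *Zfp335* (chromosome 2) the 8 measured sites ranged from 1.67% to 2.51%, and runs of neighbouring sites had the same values because they lay on the same reads.

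Across the 260 promoters the median level over the 6 samples was 1.85%, with quartiles of 1.44% and 2.35%. Of these promoters, 250 (96.2%) were under 5%, 4 were between 5% and 10%, and 6 (2.31%) were above 10%. The other 15617 autosomal genes measured by the same rule had nearly the same median, 1.88%, but 10.1% of them were above 10% and 5.63% above 80%, against 0.769% (2 genes) of the Zfp promoters. Among genes with at least 3 sites, 3 of 236 Zfp promoters (1.27%) were above 10%, against 4.77% of 13842 others. The 48 Zscan, Zkscan, Zbtb, and Zik1 genes, which encode related zinc finger proteins, had a median of 1.75% and 1 promoter above 10%. These shares are descriptions without a test. The bisulfite conversion rate is not given in the sources used here, so levels of 1% to 2% cannot be told apart from unconverted cytosines.

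**Figure D1:**
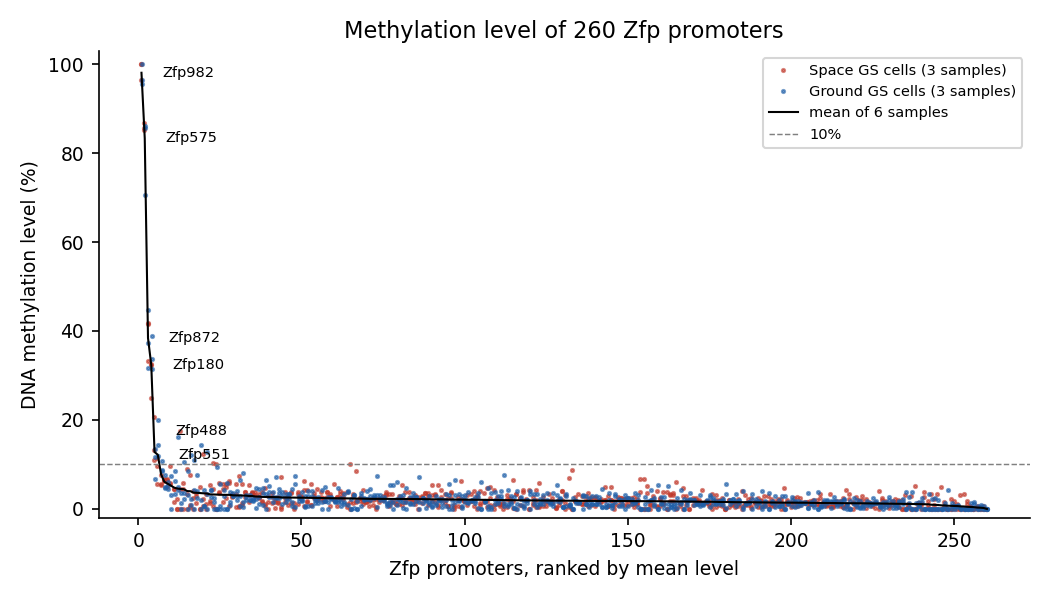
DNA methylation level (%, vertical axis) of the 260 Zfp promoters ranked by their mean, with a point for each of the 3 Space and 3 Ground samples and a line for the mean of all 6. The line falls from 98.1% to 12.2% over the first 6 promoters, lies between 7.79% and 5.25% for the next 4, and then stays under 5%.

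Methylation in these promoters lay away from the TSS. Of the 5368 sites, 30 (0.559%) were above 10%, 26 were above 20%, and 5 were above 80%, and these 30 sites belonged to 13 genes. None of the 2751 sites within 200 bp of a TSS was among them, and the highest of those was at 8.46%. Within 500 bp, 6 of 4613 sites (0.130%) were above 10%, against 0.917% of the sites of other autosomal genes at that distance. Beyond 500 bp the share was 3.18% (24 of 755 sites), against 3.04% in other genes, but the 2 sides differed. It was 16 of 70 sites upstream and 8 of 685 downstream. At 801 to 1000 bp upstream the share was 39.1%, against 11.5% in other genes. At that distance downstream it was 1.91%, against 3.65%. Of the 30 sites, 16 were upstream and all of these were more than 500 bp from the TSS, while 8 of the 14 downstream sites were. Upstream sites beyond 500 bp were measured in only 15 promoters, so this part of the profile rests on few genes. Of the 13 genes, 8 also had sites within 200 bp of the TSS, and in all 8 some of these were under 5%.

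**Figure D2:**
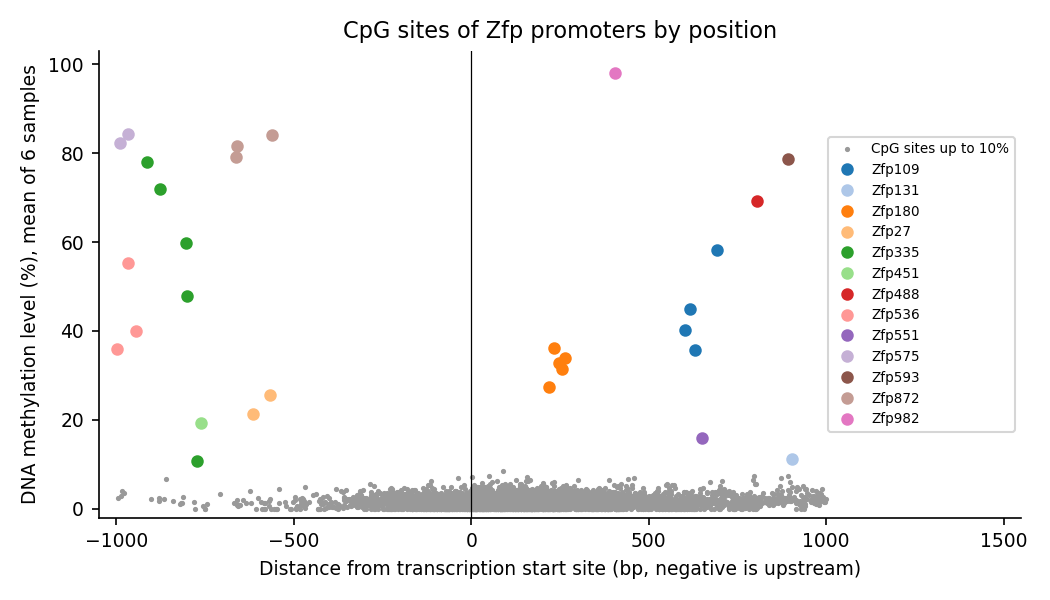
Mean level of each CpG site (%, 6 samples) against its distance from the TSS in bp, with sites above 10% coloured by gene. Grey points are by definition the sites up to 10%. Coloured points occur upstream beyond 500 bp, around 250 bp downstream in *Zfp180* only, at 404 bp in *Zfp982*, and from 602 bp downstream onward.

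The level by distance was close in both groups. From 200 bp upstream to the TSS it was 1.78% ± 0.455 (SD, n = 3) in Space and 1.77% ± 0.325 in Ground GS cells, and from the TSS to 200 bp downstream 1.71% ± 0.208 and 1.76% ± 0.319. At 801 to 1000 bp upstream it was 15.6% ± 2.15 and 17% ± 1.71, from 23 sites of 6 genes, where the other autosomal genes had 8.02% ± 0.247 and 7.75% ± 0.495. Beyond 1000 bp from the TSS, on both sides, the other genes also included those without a qualifying site within 1000 bp, unlike the Zfp genes. Further upstream the order was the reverse, between these unlike sets. At 1001 to 2000 bp the Zfp genes had 11.9% ± 1.95 in Space and 13.8% ± 0.824 in Ground GS cells, against 18% ± 0.320 and 17.5% ± 0.821 in other genes. At 2001 to 5000 bp they had 22.8% ± 0.801 and 22.9% ± 1.07, against 30.6% ± 0.414 and 30% ± 1.19. In these 2 bins the Zfp values rest on 60 sites of 11 genes and 144 sites of 26 genes. On the downstream side the rise came later, with 2.91% ± 0.814 and 2.74% ± 0.838 at 801 to 1000 bp and 7.44% ± 0.459 and 6.74% ± 0.621 at 1001 to 2000 bp. At 2001 to 5000 bp downstream, sites of the same genes were at 16% ± 0.644 in Space and 16.5% ± 1.10 in Ground GS cells, against 23.1% ± 0.477 and 22.4% ± 0.766 in other genes.

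**Figure D3:**
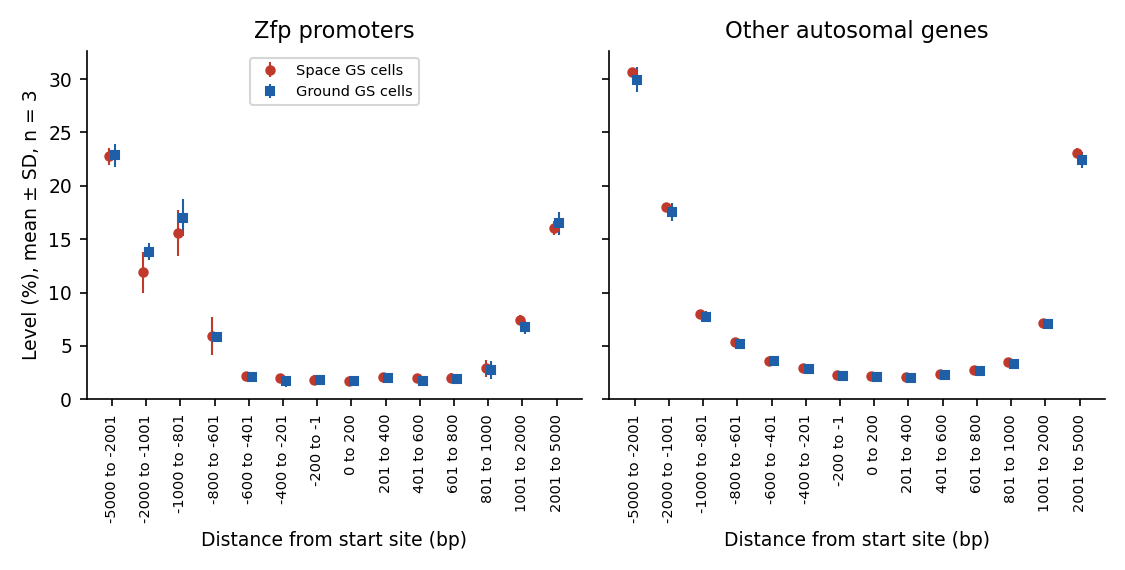
Level (%, mean ± SD over 3 samples) of CpG sites in bins of distance from the TSS, for the Zfp promoters (left) and other autosomal genes (right), in Space (circles) and Ground (squares) GS cells. Both panels dip to about 2% around the TSS, and Space and Ground points lie together in most bins. Beyond 1000 bp only the right panel includes genes without a qualifying site within 1000 bp.

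The highest level was in *Zfp982* (chromosome 4, + strand, TSS at 147576874 in mm39), a KRAB zinc finger gene in the run of Zfp genes on that chromosome. It was measured at 1 site, 404 bp downstream of the TSS, and had 100%, 100%, and 96.4% in Space and 95.5%, 96.4%, and 100% in Ground GS cells, with 17 to 28 reads. The lower bound of the 95% Wilson interval was lowest in Ground 1, at 78.2%. All 6 samples were near full methylation, and the groups overlapped. *Zfp575* (chromosome 7, − strand, TSS at 24287066) was measured at 2 sites, 991 and 968 bp upstream, where Space samples had 86.7%, 85.3%, and 85.7% and Ground samples 86.1%, 70.6%, and 85.7%. Only the second Ground sample was lower. Nothing closer to the TSS of either gene was measured at this depth, so their levels describe these sites and not the whole promoter.

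*Zfp872* (chromosome 9, + strand, TSS at 22099386), a KRAB zinc finger gene, had both states in 1 promoter. Its 3 sites from 664 to 561 bp upstream were at 86.4%, 81.0%, and 87.7% in Space and 88.1%, 87.9%, and 58.3% in Ground GS cells, with 14 to 22 reads per site. Its 3 sites from 387 to 439 bp downstream were at 0% to 2.67% in the 6 samples. The third Ground sample was the low one upstream, and the groups overlapped on both sides. The level of the whole promoter, 38.9% ± 4.86 (SD, n = 3) in Space and 37.9% ± 6.57 in Ground GS cells, is therefore a mixture of these 2 stretches.

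*Zfp180* (chromosome 7, + strand, TSS at 23781349), a zinc finger gene for which the search found no KRAB box, was the only promoter with a site above 10% within 400 bp of its TSS. Its 5 sites, 220 to 263 bp downstream, had mean levels of 27.5% to 36.1%, and each had 65 to 81 reads in every sample. The promoter level was 32.4%, 25%, and 32.6% in Space samples and 31.6%, 38.8%, and 33.7% in Ground samples. The Ground values were higher on average, by 4.70 percentage points, but the groups overlapped (unadjusted p = 0.229 in the quasi-binomial test, with dispersion moderated by limma).

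The RefSeq windows of *Zfp180* and *Zfp872* are printed next, the first for its intermediate level and the second for its split promoter, with every CpG in capitals since all measured sites of both lie outside the window.

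Zfp180: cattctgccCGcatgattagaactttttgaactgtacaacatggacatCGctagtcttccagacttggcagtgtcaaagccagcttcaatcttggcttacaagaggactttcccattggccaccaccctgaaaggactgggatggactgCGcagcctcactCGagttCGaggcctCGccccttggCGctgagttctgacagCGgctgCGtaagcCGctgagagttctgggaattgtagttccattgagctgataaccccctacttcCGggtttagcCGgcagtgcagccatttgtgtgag
Zfp872: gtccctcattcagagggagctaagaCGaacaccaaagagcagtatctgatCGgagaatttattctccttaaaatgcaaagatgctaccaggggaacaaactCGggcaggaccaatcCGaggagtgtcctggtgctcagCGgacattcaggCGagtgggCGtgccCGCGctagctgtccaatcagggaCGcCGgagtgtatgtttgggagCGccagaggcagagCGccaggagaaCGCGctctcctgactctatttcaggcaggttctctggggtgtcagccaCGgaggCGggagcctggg

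These windows hold 12 CpG in *Zfp180* and 17 in *Zfp872*, where the matched Zfp promoters had a median of 17. By this count *Zfp180* was below the median of the Zfp promoters and *Zfp872* at it. The 75 matched autosomal Zfp genes without a qualifying site had a median of 9. All 27025 symbols of the RefSeq table, taken without regard to coverage, had a median of 8.

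The remaining promoters above 10% were *Zfp488* and *Zfp551*. *Zfp488* (chromosome 14, − strand, TSS at 33700721), a gene of oligodendrocyte differentiation, had 1 methylated site 804 bp downstream and 2 sites at 170 and 184 bp near 2%. *Zfp551* (chromosome 7, − strand, TSS at 12156678) had 2 sites, 574 and 651 bp downstream, which together had 9.76%, 5.71%, and 11.4% in Space and 20%, 14.3%, and 11.9% in Ground GS cells. The 3 Ground values were above the 3 Space values, with 11 to 37 reads per site, and with fewer than 3 sites the promoter did not enter the test.

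In the other 7 of the 13 genes the promoter level was under 10%, since most reads came from unmethylated sites. *Zfp335*, a regulator of gene expression in neural progenitors, had 5 sites from 914 to 772 bp upstream whose mean levels fell toward the TSS from 78.1% through 71.9%, 59.7%, and 48.0% to 10.8%. Its 23 sites from 98 bp upstream to 199 bp downstream were at 1.26% ± 0.917 in Space and 2.40% ± 1.55 in Ground GS cells (SD, n = 3). *Zfp536*, a repressor of neuronal differentiation, had 48.3% ± 6.90 in Space and 39.3% ± 6.27 in Ground GS cells over 3 sites from 997 to 944 bp upstream. *Zfp109*, a KRAB zinc finger gene, had 38.1% ± 6.01 and 33.5% ± 1.94 over 5 sites from 554 to 691 bp downstream, beside 1.29% ± 1.13 and 1.37% ± 0.837 over 11 sites around its TSS. *Zfp593* had 1 site at 81.2% ± 7.85 and 76.1% ± 13.2, 892 bp downstream, while its other 31 sites were at 1.58% ± 0.247 and 2.00% ± 0.411. The others, *Zfp27*, *Zfp131*, and *Zfp451*, had 1 or 2 sites between 11.2% and 25.7%. Below these genes, the next highest promoters with at least 3 sites were *Zfp677*, *Zfp943*, *Zfp507*, *Zfp84*, *Zfp108*, *Zfp931*, *Zfp54*, and *Zfp1*, whose mean levels ran from 4.79% down to 3.28%. In *Zfp84* 2 samples stood out, with 7.66% in Space 1 and 12.1% in Ground 3 and 0.457% to 2.14% in the other 4.

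**Figure D4:**
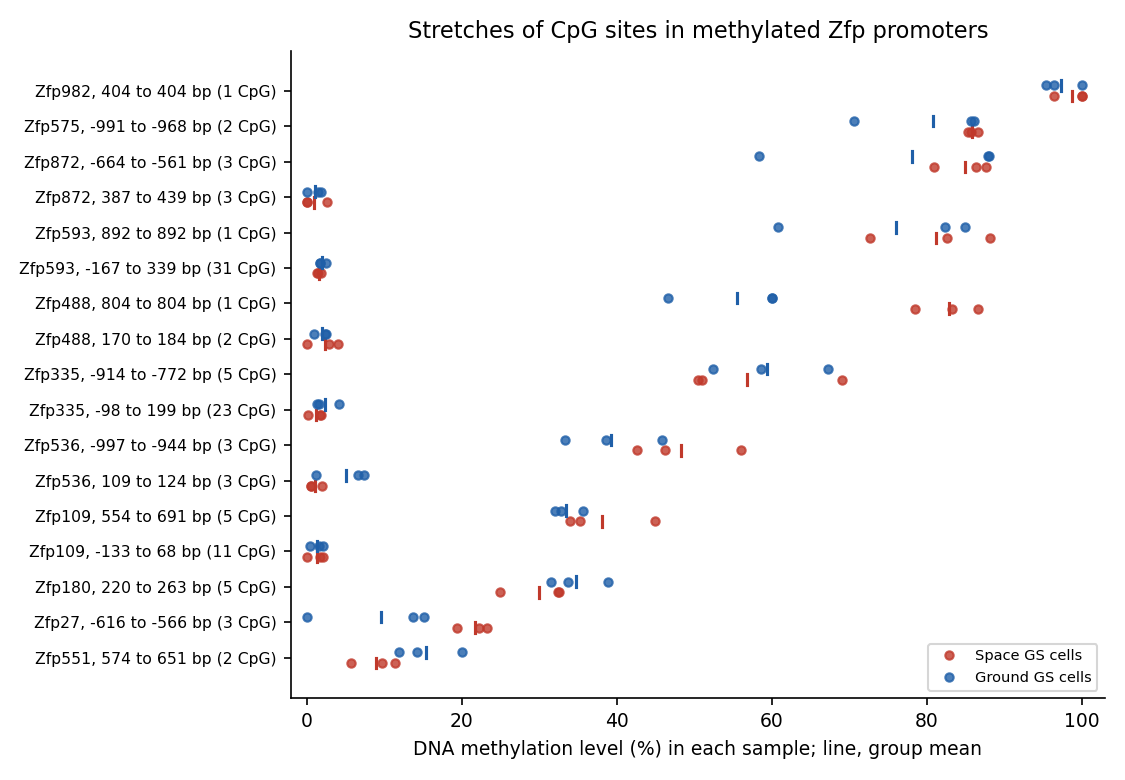
Level (%) in each of the 6 samples for stretches of CpG sites in the promoters with methylated sites, with red for Space and blue for Ground GS cells and a line at each group mean. Methylated and unmethylated stretches of 1 promoter lie far apart in *Zfp872*, *Zfp593*, *Zfp488*, *Zfp335*, *Zfp536*, and *Zfp109*. The 2 groups do not overlap at the *Zfp488* site 804 bp downstream and in the *Zfp27* stretch, both higher in Space, and in *Zfp551*, lower in Space.

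Zfp genes stand in runs along the chromosomes, and chromosome 7 alone held 70 of the 260 promoters (26.9%). Of the 362 autosomal Zfp genes, 175 lay in 17 runs of at least 5 Zfp genes with no more than 500 kb between neighbouring TSSs. A promoter was measured for 66.9% of the genes in runs and 76.5% of the genes outside. The 117 promoters in runs had a median of 2.03% and 5 were above 10%, and the 143 outside had a median of 1.78% and 1 above 10%. In 13 of the 17 runs no promoter was above 10%. The run on chromosome 4 had only 2 of 19 genes measured, *Zfp982* among them, and that on chromosome 13 had 5 of 19, at 0.917% to 3.62%. The run on chromosome 7 from 23781349 to 24920850 held *Zfp180*, *Zfp109*, and *Zfp575*, and its 12 measured promoters had a median of 2.44%. Of the 13 genes with methylated sites, 6 were on chromosome 7.

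Levels were close with and without a KRAB box. A search of the reading frames of GENCODE M21 transcripts found a KRAB box for 138 promoters and none for 119, and for 3 there was no coding transcript. The median level was 1.85% with and 1.87% without the box, and 3 promoters were above 10% in each class (2.17% and 2.52%). *Zfp982*, *Zfp872*, and *Zfp551* were those with the box, and *Zfp575*, *Zfp180*, and *Zfp488* those without.

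By known role, the 29 measured members of the 7 lists were nearly all unmethylated. Of the genes of imprint maintenance, *Zfp445* had 1.55%, and *Zfp57* had no qualifying site. Of 8 genes of retroelement repression, 4 were measured, at 1.10% to 1.92%, and *Zfp809*, which silences murine leukemia virus-like elements, had 1.41% ± 1.67 in Space and 1.78% ± 0.688 in Ground GS cells (SD, n = 3). *Zfp568*, a repressor of a placental *Igf2* transcript, had 1.39% ± 1.08 and 1.18% ± 0.731, and *Zfp264*, in the imprinted *Peg3* domain, had 1.39% ± 0.530 and 1.001% ± 0.772. Of 4 germ line or early embryo genes, the meiotic gene *Zfp541* had 2.70% ± 1.15 and 2.45% ± 0.896, *Zfp296* had 2.93% ± 1.17 and 1.36% ± 0.881, and *Zfp37* and *Zfp352* were not measured. Of 10 genes of development and differentiation, 9 were measured with a median of 1.70%, from 0.576% in *Zfp462* to 12.8% in *Zfp488*. Of 12 broadly used regulators, 11 were measured with a median of 1.64%, from 0.410% in *Zfp207*, a spindle assembly factor, to 7.79% in *Zfp335*. None of the 27 list members that were tested passed the test between groups, and *Zfp459* and *Zfp106*, with 1 site each, were not tested.

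The comparison of Space with Ground GS cells asked whether storage in orbit left a difference in these promoters. No promoter differed at an adjusted p under 0.05 in the quasi-binomial test (dispersion moderated with limma, Benjamini-Hochberg over all promoters). This was so for all 14361 promoters tested in the table (0%) and for the 235 Zfp promoters among them, and the smallest adjusted p was 0.912. *Zfp954* was not tested since it had no methylated read. At an unadjusted p under 0.05 there were 17 Zfp promoters (7.23%), 8 higher and 9 lower in Space GS cells, against 763 (5.31%) of all promoters. The levels of the 3 Space samples did not overlap those of the 3 Ground samples in 32 of 260 promoters (12.3%), 15 higher and 17 lower, against 9.46% of 15877 autosomal promoters. The Zfp share was not above that of the table in every setting, and the shares were not compared by a test. Without the second Space sample 11 Zfp promoters (4.68%) were at an unadjusted p under 0.05, against 5.14% of all promoters. Without the third Space sample there were 13 (5.53%), against 5.73%. In the other settings the Zfp share was the higher. The edgeR quasi-likelihood test called 0 Zfp promoters, with 10 (4.24%) at an unadjusted p under 0.05 against 3.98% of all, and limma on log2 ratios also called 0, with 19 (8.05%) against 4.64%.

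The mean over the 260 promoters was 3.37%, 2.86%, and 2.93% in Space samples and 3.32%, 2.77%, and 2.76% in Ground samples. The first sample of each group was the highest, and the other autosomal genes showed the same, with 9.14% and 9.19% in these 2 samples and 8.48% to 8.77% in the other 4. The Space mean of 3.05% ± 0.280 (SD, n = 3) and the Ground mean of 2.95% ± 0.324 differed by 0.103 percentage points, less than the spread between samples. The median absolute difference of a promoter was 0.688 percentage points, and 4 promoters differed by more than 5 points, *Zfp575*, *Zfp551*, *Zfp943*, and *Zfp418*. The largest was in *Zfp418* (chromosome 7), measured at 1 site 185 bp downstream with 20 to 44 reads, which had 2.27%, 0%, and 0% in Space and 5%, 16.1%, and 4.17% in Ground GS cells. These groups did not overlap, and with 1 site the promoter did not enter the test. Among promoters with at least 3 sites the median was 0.669 points, against 0.594 in other autosomal genes, and the largest was 5.66 points.

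The 5 smallest unadjusted p values belonged to promoters with very few methylated reads. In *Zfp68* (chromosome 5), a KRAB zinc finger gene, Space samples had 0.255%, 0.538%, and 0.165% and Ground samples 5.38%, 1.78%, and 3.08% over 29 sites (unadjusted p = 0.00176, adjusted p = 0.912, quasi-binomial test with limma). The groups did not overlap, but no site had more than 2 methylated reads in a Space sample or 4 in a Ground sample. In *Zfp142* (chromosome 1) Space samples had 3.22%, 3.47%, and 3.70% and Ground samples 1.24%, 0.737%, and 1.21%, with at most 4 methylated reads at a site. In *Zfp764* (chromosome 7) the 3 Space samples were at 0% and Ground samples at 3.33%, 5.71%, and 0.255%, with at most 3 methylated reads at a site. *Zfp426* was lower in Space, 0.654% ± 0.577 against 2.81% ± 1.32 (SD, n = 3), and *Zfp775* was higher, 3.36% ± 1.83 against 0.962% ± 0.600. In all 5 the adjusted p was 0.912 in that same test.

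The largest differences among promoters with at least 3 sites came with a wide spread between samples. *Zfp943* (chromosome 17) had 17.5%, 0%, and 4.44% in Space and 0%, 3.53%, and 1.43% in Ground GS cells, so that 1 Space sample made the mean difference of 5.66 points, and that sample had at most 4 methylated reads of 16 at a site. *Zfp180* followed, with the values given above, and then *Zfp488*, whose promoter level was 15% ± 5.04 in Space and 10.6% ± 3.41 in Ground GS cells (SD, n = 3). *Zfp770* had 0.765%, 10.3%, and 4.59% against 0%, 1.47%, and 2.39%, and *Zfp54* had 3.33%, 0%, and 1.19% against 0%, 3.45%, and 12.8%. In each of these 5 promoters the groups overlapped.

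**Figure D5:**
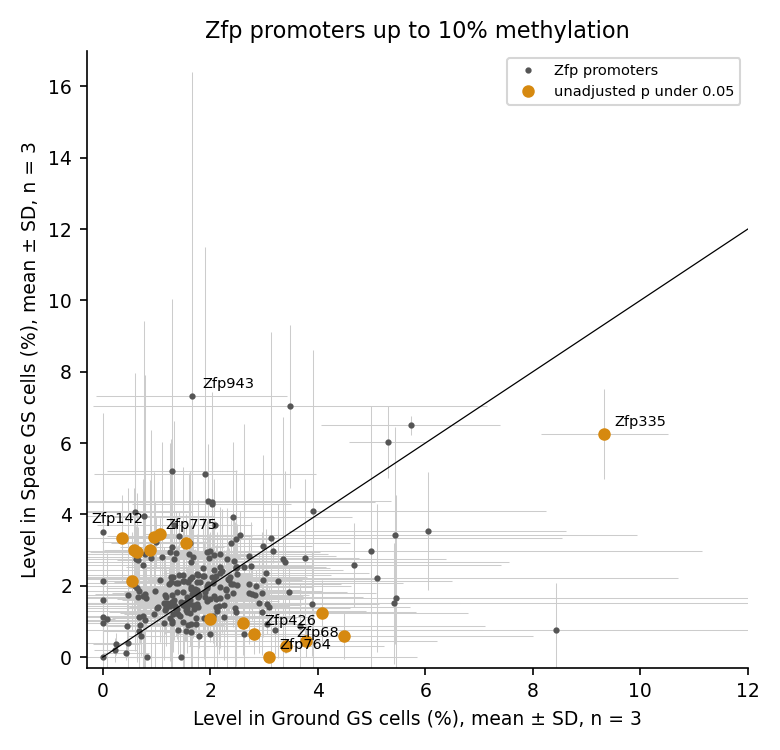
Level (%, mean ± SD over 3 samples) of the 254 Zfp promoters up to 10% in Space against Ground GS cells, with the line of equal levels and, in orange, promoters at an unadjusted p under 0.05. The orange points lie on both sides of the line, and all but *Zfp335* are under 5% in both groups.

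A difference of more than 20 percentage points at a single CpG site, the threshold used in the study, was found at 2 of the 5368 sites (0.0373%), both higher in Space GS cells, against 0.0178% of 386695 autosomal promoter sites that were higher and 0.0101% that were lower. The *Zfp488* site 804 bp downstream of the TSS (chromosome 14, 33699916 in mm39) had 86.7%, 83.3%, and 78.6% in Space and 60%, 60%, and 46.7% in Ground GS cells. Every Space sample was above every Ground sample, with 15 to 28 reads, and the difference was 27.3 points. Its 2 neighbours nearer the TSS had 2.31% ± 2.09 and 1.95% ± 0.845 (SD, n = 3). The *Zfp27* site 566 bp upstream (chromosome 7, 29606562) had 25%, 60%, and 33.3% in Space and 17.6%, 0%, and 18.2% in Ground GS cells, with 10 to 17 reads, and the difference was 27.5 points. The site 50 bp further upstream overlapped between groups, and the one between them, 585 bp upstream, was at 0% in all samples. Both sites were chosen for their difference, so no p-value is given for them.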

How the data were processed

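Per the labels, the 6 RRBS libraries are 3 numbered samples per group. Whether these are separate cultures of 1 donor or of several animals is not given there, so the p-values measure only the spread between these samples, which may be technical. The authors deposited 1 table that gives, per CpG site and sample, the coverage (a count of reads) and the percent methylated, beside the closest TSS, its strand, gene, and unsigned distance. The submitters' processing notes name Trim Galore, Bismark 0.24.2, methylKit, and mm39. Duplicate removal and the bisulfite conversion rate are not given in the sources used here.

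The product of coverage and percent gave the methylated reads, within 0.000266 of a whole read. Sums over the sites of a gene count a read once per CpG, which narrows counting intervals. Measured CpG sites in RefSeq windows fell on the given start coordinate read as the 1-based C of the + strand, so distances on that strand are 1 bp too far downstream. Table totals were 28535973 to 33743845 reads per sample.

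Promoters with at least 3 sites were tested with a quasi-binomial model (R 4.3.3, squeezeVar of limma 3.58.1, edgeR 4.0.16 as an alternative), which was tested on simulated data. KRAB boxes were scored over 36 residues with a minimum of 20 bits. The members, the 7 gene lists, and the rule for named genes were chosen with earlier results of these data known. The rule named the 15 highest promoters with at least 3 sites, all at 10% to 80%, the 5 largest differences, 5 smallest p, and 5 widest ranges of site levels, list members above 10% or of well-known role, and promoters of 1 or 2 sites above 10%. *Zfp954*, *Zfp451*, and *Zfp418* were also named after their values were seen. No pair of samples agreed within sampling noise (chi-square per degree of freedom 1.41 to 1.51). Alternatives were other coverage minimums, windows, site numbers, weights, and tests, the replicate block, and leaving out each sample. Correlations of the deviations of same-numbered samples were 0.153, 0.0458, and 0.0112 over 781 promoters. Those of differently numbered samples ran from -0.150 to 0.103. These values do not settle whether the numbers are pairs, so the main test left them out and the replicate block was an alternative. Python 3.11.15 with matplotlib 3.10.9 drew the figures.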

Additional observations from a re-analysis of the deposited data

How the results depend on the processing

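No Zfp promoter was called under any of the 15 alternatives. Promoters above 10% numbered 6, but 2 with a minimum of 20 reads, 2 within 500 bp, and 20 within 2 kb, so the count depends on how far from the TSS sites are taken. Split by KRAB box these were 1 and 1 with 20 reads, 1 and 1 within 500 bp, and 10 and 10 within 2 kb, and unweighted site means gave 5 without the box. The level at 501 to 1000 bp upstream, 9.34%, was 4.60% with 20 reads and 13.7% with unweighted means. Sites past 20 points numbered 2, but 6 with a minimum of 5 reads, 0 with 20 reads, and 0 within 500 bp. Without single samples they numbered 2 to 4, with 4 without the third Space, the first Ground, or the second Ground sample, and the *Zfp27* site was not among them without the second Space sample. The mean difference, 0.103 points, was -0.0569 to 0.290 without single samples. Of 245 values of 25 named promoters over the alternatives, 238 lay within 1 SD of the reported difference. Much of this was fixed in advance, since leaving out 1 of 3 samples cannot move a difference by 1 SD of those samples. Leaving out sites of more than 1000 reads changed nothing either. The other 7 values came with a minimum of 20 reads or with unweighted site means. The sign turned under at least 1 alternative in 10 of the 25 promoters, none of them called. Leaving out 1 sample did so in 7, *Zfp84*, *Zfp872*, *Zfp507*, *Zfp931*, *Zfp108*, *Zfp575*, and *Zfp593*, and other settings in *Zfp770*, *Zfp536*, and *Zfp109*.

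With the replicate block, 0 Zfp promoters were called and 24 (10.2%) were at an unadjusted p under 0.05, against 7.33% of all promoters. The mean difference was 0.103 ± 0.0598 points (SD), from 0.0497, 0.0925, and 0.168 between samples of the same number, all higher in Space. This difference is under the spread between samples but over that of the 3 same-number differences. It is not particular to the Zfp promoters, since the other autosomal genes were higher in Space by 0.114 points. Their means were 9.14%, 8.77%, and 8.71% in Space and 9.19%, 8.61%, and 8.48% in Ground samples, with the first pair lower in Space. Samples of the same number also carry consecutive numbers in their descriptions, with no meaning given. Coverage limits the values of single sites, since the sites above 10% had 10 to 81 reads. Leaving out sites of more than 1000 reads changed none of these values, since no Zfp promoter held such a site.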
